A study of Mus musculus with 32 samples.

Results

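Interferon-induced genes are the genes that cells switch on when type I interferons, or interferon gamma, bind their receptors. The 9 members described here are Irf1, Irf7, Ifit1, Ifit2, Ifit3, Isg15, Rsad2, Ifi44 and Usp18. Each was to be read from the probe set that lists that gene alone and, where a gene has several, from the one of highest mean over all 32 arrays. That left 7 members of 9, out of 18194 genes measured in the series. Isg15 shares its probe set with another listed gene, and Isg15 and Ifi44 are not analysed here.

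The arrays (Affymetrix mouse genome arrays) measured liver RNA of CD-1 mice, an outbred strain. The adult groups were female, 10 weeks old at time 0 (normal liver, the control) and taken at 9 times between 1 and 72 h after removal of 2/3 of the liver with the gallbladder, under ketamine and xylazine with buprenorphine afterwards. The embryonic groups were CD-1 embryo liver at 6 stages, daily from 10.5 to 14.5 and then 16.5 days post conception (dpc). No group carried an engineered allele, and no sham-operated group is among the samples used, so the effects of surgery, anaesthesia and analgesia cannot be told apart from that of the resection. Each of the 16 groups had 2 arrays, and every array holds pooled RNA, from 3 or more animals, so n = 2 throughout and a p-value measures the spread between pools. In the embryonic samples the age and description fields contradict the titles and sources, and the stages come from the latter.

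As background, an interferon that reaches its receptor activates Janus kinases, which phosphorylate STAT proteins. A complex that holds STAT2 and IRF9 binds a DNA element called the interferon-stimulated response element (ISRE) before the target genes. Interferon gamma acts through another element, the gamma-activated site (GAS). IRF1 and IRF7 are transcription factors of the interferon regulatory family: IRF7 drives the interferon alpha genes and is itself induced by interferon, and IRF1 acts downstream of interferon gamma and inflammatory signals. The IFIT proteins bind foreign or unmodified RNA, viperin (the product of Rsad2) makes a chain-terminating nucleotide, and USP18 removes ISG15 from proteins and dampens the type I receptor. In liver, hepatocytes, Kupffer cells and other immune cells can all respond to interferon.

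Promoter sequence was looked at first, for the letters of the ISRE and GAS elements named above. RefSeq windows of the 250 bases before the start site (GRCm38.p6) were matched by symbol for 8 of the 9 members, 10 windows in all. Usp18 was not matched. The letters searched were GAAA, any 2 bases and GAAA for the ISRE, and TTCNNNGAA for the GAS, each on both strands. An ISRE match was present in 2.98% and a GAS match in 7.02% of all 32851 windows. The ISRE letters were found in 4 members, Ifit1, Ifit3, Isg15 and Rsad2, and the GAS letters in 2, Ifit2 and Irf1. A match is a description of the letters in this window and no evidence of binding. The 5 windows below are those of the members whose values are described at most length, Irf1 and Irf7 for the factors and Ifit1, Ifit3 and Rsad2 for the effectors. They are printed 5′ to 3′ on the gene's strand, and capitals mark the matches.
Irf1, chr11:53769764-53770013, plus strand: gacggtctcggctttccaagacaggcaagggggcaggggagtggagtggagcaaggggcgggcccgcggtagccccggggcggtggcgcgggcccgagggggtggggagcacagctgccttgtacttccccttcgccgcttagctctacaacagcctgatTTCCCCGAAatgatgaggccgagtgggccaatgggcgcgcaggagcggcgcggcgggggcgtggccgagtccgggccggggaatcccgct
Irf7, chr7:141266425-141266674, minus strand: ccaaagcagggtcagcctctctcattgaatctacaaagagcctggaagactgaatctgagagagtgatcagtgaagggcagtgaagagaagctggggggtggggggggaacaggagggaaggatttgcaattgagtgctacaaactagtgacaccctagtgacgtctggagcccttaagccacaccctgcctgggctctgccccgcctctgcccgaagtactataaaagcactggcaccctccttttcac
Ifit1, chr19:34640639-34640888, plus strand: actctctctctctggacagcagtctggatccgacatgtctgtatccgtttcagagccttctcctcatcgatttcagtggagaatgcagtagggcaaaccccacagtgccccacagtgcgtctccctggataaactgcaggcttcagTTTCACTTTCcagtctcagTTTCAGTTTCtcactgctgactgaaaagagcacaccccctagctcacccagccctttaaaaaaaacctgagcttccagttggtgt
Ifit3, chr19:34583279-34583528, plus strand: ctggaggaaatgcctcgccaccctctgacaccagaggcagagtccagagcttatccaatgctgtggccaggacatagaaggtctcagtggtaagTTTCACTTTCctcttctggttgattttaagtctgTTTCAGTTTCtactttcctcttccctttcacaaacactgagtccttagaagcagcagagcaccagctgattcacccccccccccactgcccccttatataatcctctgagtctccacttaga
Rsad2, chr12:26456453-26456702, minus strand: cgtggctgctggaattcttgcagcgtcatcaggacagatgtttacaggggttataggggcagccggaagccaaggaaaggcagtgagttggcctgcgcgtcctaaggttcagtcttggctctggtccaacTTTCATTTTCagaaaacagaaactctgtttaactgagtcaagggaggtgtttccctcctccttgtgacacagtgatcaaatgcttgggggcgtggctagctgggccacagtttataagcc
Ifit1 and Ifit3 each held 2 ISRE matches, and the letters between the fixed bases were the same in both genes, TTTCACTTTC followed by TTTCAGTTTC. In Ifit1 they began 104 and 85 bases before the start, and in Ifit3 156 and 122 bases before it. The single match of Rsad2, TTTCATTTTC, began 120 bases before the start. Irf1 has 2 RefSeq windows: the one printed held 1 GAS match, TTCCCCGAA, beginning 90 bases before the start, and the other (chr11:53770223-53770472) held neither motif. Ifit2 likewise had its GAS match in 1 of 2 windows. The Irf7 window held neither motif.

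Levels are the deposited signals, in linear intensity units without detection calls; the median of all values was 74.6. Signals of different genes come from different probes and were not set against each other. Differences are on the scale of log2(signal + 16), which shrinks the change of dim genes, and are given with their standard error (SE). They come from 1 limma fit over all 32 arrays, with p-values adjusted by Benjamini-Hochberg over the 18194 genes of a comparison and a gene called where that value is under 0.05. Array medians lay between 69.7 and 79.5. The 48 h array 2 and the 10.5 dpc array 1 stood apart, with 3′ to 5′ Gapdh ratios of 1.22 and 1.49 on the log2 scale where the other 30 lay at or below 0.323. A high ratio can be a sign of shorter RNA. The Actb ratio was also highest on that 48 h array (2.42). On that 10.5 dpc array it was 0.90, within the range of the others, which reached 1.72 (2 h array 2). None of the 6 hepatocyte markers was at or below 0 on all arrays of a group, and the embryonic livers had the fetal pattern, with Afp 5.87 higher and Cyp2e1 6.22 lower (log2) than time 0.

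**Figure D1:**
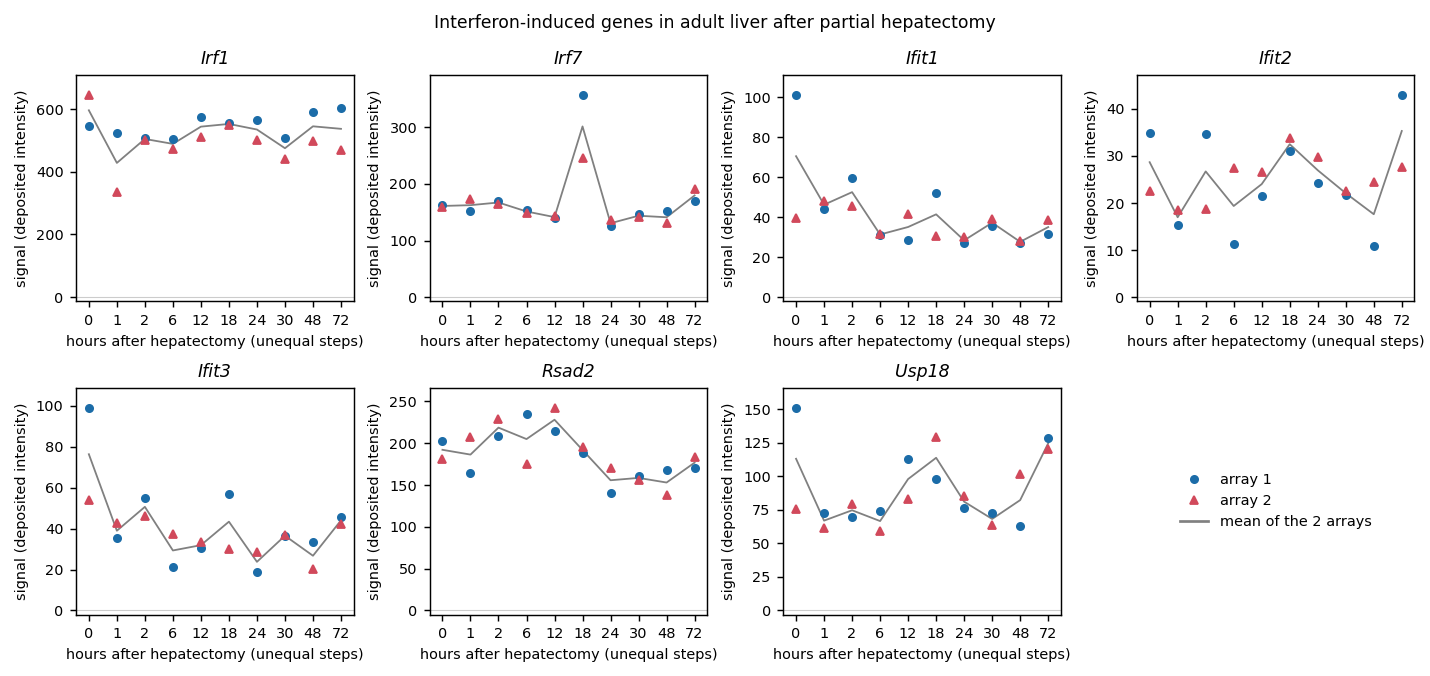
Deposited signal (linear intensity, y axis) of the 7 measured members at the 10 adult times (x axis, hours, unequal steps); circles and triangles are the 2 arrays and the grey line is their mean. Irf7 reaches 358 and 246 at 18 h and lies at 190.3 or below on the other 18 adult arrays, and Ifit1, Ifit3 and Usp18 are highest on array 1 of time 0.

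Irf7 was the member that rose after hepatectomy, and it did so at a single sampled time. Its signal was 164 and 159 at time 0, then 152 and 174 (1 h), 171 and 164 (2 h), 154 and 149 (6 h) and 139 and 144 (12 h). At 18 h it was 358 and 246. Afterwards it was 126 and 136 (24 h), 147 and 141 (30 h), 151.5 and 131 (48 h) and 169 and 190.3 (72 h). Both 18 h arrays lay above every other adult array. The 18 h level was 0.82 ± 0.15 (SE, log2) above time 0, 1.77-fold, with a limma adjusted p of 0.00145, and 4.41% of all genes were called raised in that comparison. Against its neighbours in time Irf7 rose by 0.99 ± 0.15 from 12 to 18 h (limma adjusted p = 0.00434) and fell by 1.09 ± 0.15 from 18 to 24 h (limma adjusted p = 0.00044). The call against time 0 held in all 43 alternatives, at an adjusted p of at most 0.0423. Without 18 h array 1 the difference from time 0 was 0.56 (limma adjusted p = 0.0423). The rise from 12 to 18 h was no longer called without 18 h array 1 (0.73, limma adjusted p = 0.099) or without 12 h array 2. In the order of the 10 adult means, only the gap between 18 h and the next time, 72 h, exceeded the spread between arrays of a time (0.68 against a pooled SD of 0.137, log2).

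Markers of other cells also moved at 18 h. Of the 5 plasmacytoid dendritic cell markers (the blood cells known for making interferon alpha), 1 rose at 18 h, Ly6d, a gene of B cells too. The summed signal of that list was 913 and 1041 at 18 h and 419 and 426 at time 0, with none of the 5 at or below 0. The defining marker Siglech was 73.4 and 68.8 at 18 h and 90.1 and 64.4 at time 0, and was not called. The macrophage list summed to 4601 and 4173 at 18 h against 4702 and 4594 at time 0, with Marco raised and Clec4f and Vsig4 lowered among its 11 genes. The neutrophil genes S100a8 and S100a9 rose, 2 of the 8 measured in that list, whose sum was 1680 and 1359 against 785 and 827. The part of these cells in the Irf7 result was not tested, and in whole liver a change in the number of cells of a type cannot be told apart from a change in RNA per cell.

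Irf1, the second transcription factor, showed no called change at any adult time. Its signal was 547 and 646 at time 0, ranged from 334 to 605 over the 18 arrays after hepatectomy, with a median of 508, and was lowest at 1 h (522 and 334). The difference from time 0 at 1 h was -0.49 ± 0.24 (log2; limma adjusted p = 0.586), and none of the 9 gaps between neighbours in the order of its adult means exceeded the spread between arrays.

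The 3 Ifit genes, neighbours in a cluster on chromosome 19, did not rise after the operation. Ifit1 was 101 and 39.8 at time 0, then 44.3 and 48.3 (1 h), 59.6 and 45.6 (2 h) and 31.1 and 31.7 (6 h). From 12 h on its 12 arrays lay between 27.0 and 52.4. Ifit3 was 99.0 and 53.8 at time 0, then 35.3 and 42.7 (1 h), 55.2 and 46.2 (2 h) and 21.3 and 37.4 (6 h). It was 30.6 and 33.3 (12 h), 56.8 and 30.1 (18 h), 18.9 and 28.7 (24 h), 36.3 and 36.9 (30 h), 33.4 and 20.1 (48 h) and 45.6 and 42.5 (72 h). In both genes array 1 of time 0 was the highest of all 32 arrays, and it was well above array 2. For Ifit3, 16 of the 18 later arrays lay below both time 0 arrays, and for Ifit1 12 of 18.

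Ifit3 was called lowered at 12 h, by -0.90 ± 0.28 (log2; limma adjusted p = 0.045), and at 24 h, by -1.18 ± 0.28 (limma adjusted p = 0.038), where 4.57% and 0.561% of all genes were called lowered. Its mean over 12 to 30 h was 0.87 ± 0.22 below time 0 (limma adjusted p = 0.0228), in a comparison that called 2.1% of genes lowered. All 3 calls ended without array 1 of time 0, where the differences were -0.54, -0.82 and -0.51 with limma adjusted p-values of 0.429, 0.419 and 0.504. The 12 h call ended in 19 of the 32 omissions of 1 array: either array of 1, 2, 12, 30 and 72 h and of the 4 stages from 12.5 dpc on, beside array 1 of time 0. The 24 h call ended in 5 of 32, those of array 1 of time 0 and of either array of 24 or 30 h. Ifit1 differed from time 0 by between -0.25 at 2 h and -0.89 at 48 h and was never called, with a limma adjusted p at 48 h of 0.138.

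Ifit2 was dim in adult liver, with 34.9 and 22.5 at time 0 and a range of 10.8 to 43.0 over the later 18 arrays. It was not called at any time: the differences from time 0 lay between -0.43 and 0.20 (log2), and the one at 48 h was -0.43 ± 0.23 (limma adjusted p = 0.419). No group of Ifit1 or Ifit2 averaged above that overall median of 74.6, so 5 of the 7 members passed that filter. Ifit3 passed it through time 0 alone, with a mean of 76.4 there and a next highest group mean of 50.7 (2 h). Ifit3 has a near-identical neighbour, Ifit3b, and signal of such copies may be mixed.

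Usp18 followed time 0 in the same unequal way, with 151 and 75.3. It was 72.4 and 61.6 (1 h), 69.8 and 79.6 (2 h), 74.0 and 59.3 (6 h), 113 and 83.0 (12 h) and 98.2 and 129 (18 h). Later it was 76.7 and 85.6 (24 h), 72.9 and 63.6 (30 h), 62.9 and 102 (48 h) and 129 and 120.4 (72 h). The higher values at 12, 18 and 72 h lay within the range of the 2 time 0 arrays. No time was called against time 0, and the value at 6 h was -0.58 ± 0.23 (log2; limma adjusted p = 0.286).

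Rsad2 was not called at any adult time on any of its 3 probe sets. On the set used, 1436058_at, its 18 arrays after hepatectomy ran from 138 to 242 with a median of 179, around time 0 values of 203 and 181. The highest pair was that of 12 h (214 and 242) and the lowest that of 48 h (168 and 138). The differences from time 0 on that set lay between -0.30 and 0.23 (log2). On 1421009_at they ran from -1.02 ± 0.30 at 24 h (limma adjusted p = 0.12 over 34958 probe sets) to 0.58 ± 0.30 at 12 h, where its arrays were 46.9 and 141. On 1421008_at the 12 to 30 h mean was called below that of 1 to 6 h (-0.30 ± 0.10, limma adjusted p = 0.0462), which the other 2 sets were not. None of the 9 gaps in the order of the adult means exceeded the pooled SD of 0.152.

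**Figure D2:**
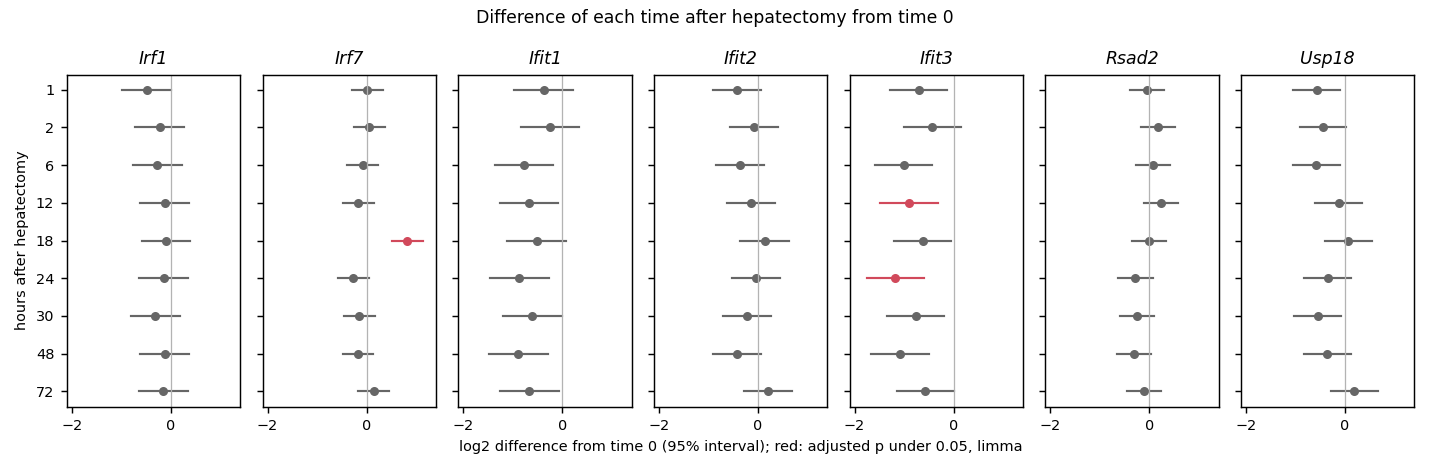
Log2 difference of each time from time 0 (x axis) for the 7 members, with 95% intervals, by hours after hepatectomy (y axis); red marks limma adjusted p under 0.05. The only interval wholly above 0 is that of Irf7 at 18 h, and the red points on the left are Ifit3 at 12 and 24 h.

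Over the 9 adult times there were 63 member tests against time 0, of which 3 were called, 1 raised and 2 lowered. Of all gene-time tests 2.8% were called, 1.61% raised and 1.19% lowered. An unadjusted limma p under 0.05 was found in 18 of the 63 member tests, which all share the 2 arrays of time 0. The matching unadjusted share of all genes was not computed, here or for the phases below. The unadjusted counts therefore do not show whether the members differ from other genes. The shares of genes called in each phase are at the adjusted threshold. The 3 calls stand on 2 genes, Irf7 and Ifit3. By phase, limma called 0 members over 1 to 6 h (2 at an unadjusted p under 0.05; 0.945% of genes called) and 0 over 48 to 72 h (2 unadjusted; 2.42% of genes). Between the phases it called 0 from 1 to 6 h to 12 to 30 h (1 unadjusted; 15% of genes) and 0 from 12 to 30 h to 48 to 72 h (0 unadjusted; 5.41% of genes). The median member lay below time 0 by 0.33, 0.17 and 0.14 (log2) in the 3 phases, while the median over all genes lay at 0.00 in each. Of the 63 tests of a time against the one before it, 2 were called, both of Irf7, where 0.954% of all such tests were called. A moderated F test over the 10 adult times called Irf7 (limma adjusted p = 0.00078) and no other member, with Ifit3 at 0.07 and Usp18 at 0.072, and called 17.7% of all genes.

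The 2 arrays of time 0 differed in these genes, and every comparison with time 0 rests on them. Array 1 was the higher in 6 of 7 members, by 1.07 (log2) in Ifit1, 0.87 in Usp18, 0.72 in Ifit3 and 0.40 in Ifit2, and it was lower in Irf1. Over all genes array 1 was the higher in 54.9%. Of the 12 related lists, it was the higher in 15 of 16 nucleic acid sensors and adaptors, 36 of 48 other type I interferon targets, 8 of 9 interferon gamma induced GTPases, 4 of 5 other interferon regulatory factors and 3 of 3 chemokines. It was the higher in 7 of 12 MHC class I genes, 3 of 5 signal transducers and 3 of 6 MHC class II genes. It was the higher in fewer of the ligands (3 of 9), receptors (2 of 6), feedback inhibitors (2 of 6) and ISG15 conjugation genes (1 of 4). Without array 1 of time 0 limma called fewer member tests against time 0, and without array 2 it called more. Each of these fits leaves 1 array at time 0, and the share of all genes called in it was not computed. On array 1 and array 2 of time 0 the macrophage markers summed to 4702 and 4594 and the lymphocyte markers to 1789 and 2323. Gene by gene, array 1 was the higher in 8 of 11 macrophage, 6 of 7 sinusoidal endothelial and 3 of 6 hepatocyte markers. It was the higher in 5 of 12 lymphocyte, 3 of 7 stellate cell and 2 of 5 plasmacytoid dendritic cell markers. The counts were 2 of 8 for neutrophil and 2 of 6 for red cell precursor markers. The part of such cells in the difference between the 2 pools was not tested.

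In embryonic liver 5 of the 7 members were lower than in adult liver in both comparisons, with time 0 and with 48 to 72 h, and Ifit2 was higher in both. Against time 0, 5 members were lowered (Ifit3, Ifit1, Irf1, Usp18 and Irf7), 1 was raised (Ifit2), and Rsad2 was not called. Of all genes 24.6% were called lowered and 30.5% raised, so that calls as such were common in this comparison. The median member difference was -0.64 (log2), against 0.02 over all genes.

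**Figure D3:**
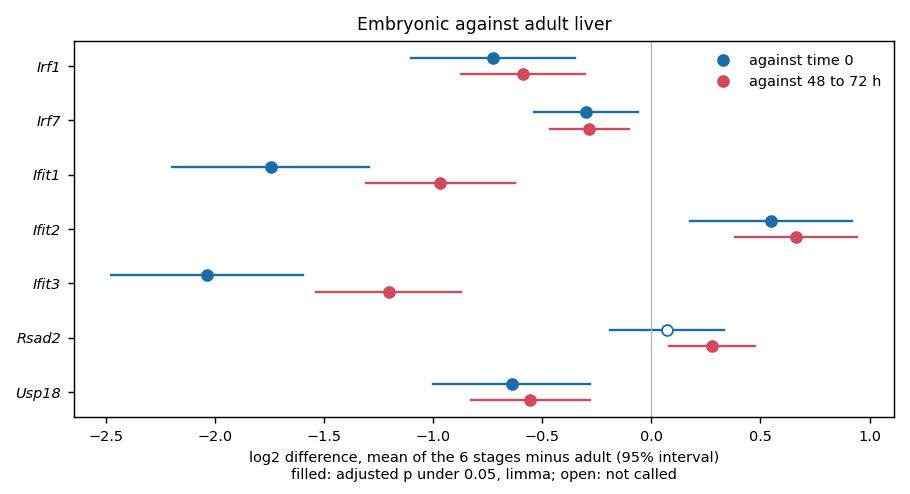
Log2 difference of the mean of the 6 embryonic stages from adult liver (x axis) for the 7 members (y axis), with 95% intervals; blue is against time 0 and red against 48 to 72 h, and filled points have a limma adjusted p under 0.05. Ifit3 and Ifit1 lie furthest to the left in both comparisons, and Ifit2 lies to the right of 0 in both.

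Ifit1 and Ifit3, the pair with the same 2 ISRE matches, were close to 0 in the embryo. Ifit1 ran from 2.07 to 18.3 over the 12 embryonic arrays, with a median of 8.77, all below the lowest adult array (27.0). Ifit3 ran from -4.97 to 22.3 with a median of 5.78, and 11 of 12 arrays lay below the lowest adult array (18.9). Ifit1 was 1.74 ± 0.22 lower than time 0 (log2; limma adjusted p = 5.73e-07) and Ifit3 2.04 ± 0.21 lower (limma adjusted p = 4.03e-08). Against 48 to 72 h the differences were -0.97 ± 0.16 and -1.20 ± 0.16 (limma adjusted p = 2.43e-05 and 9.45e-07). All 4 calls held in every alternative in which the gene was fitted. With signals this near 0 the size of the fold depends on the constant added, so no fold is given; over the alternatives the difference from time 0 ran from -2.53 to -0.86 for Ifit1 and from -3.07 to -0.98 for Ifit3.

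Ifit2, their neighbour, went the other way. It lay between 38.2 and 56.6 in all 12 embryonic arrays, 10 of them above the highest adult array (43.0). The difference was 0.55 ± 0.18 (log2) against time 0 (limma adjusted p = 0.0129) and 0.66 ± 0.13 against 48 to 72 h (limma adjusted p = 0.000196). Without array 2 of time 0 the first was no longer called (0.35, limma adjusted p = 0.259), while the second held in all alternatives in which the gene was fitted.

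Irf1 lay between 288 and 573 in the embryo with a median of 325, against 334 to 646 in adult liver. Its difference was -0.73 ± 0.18 (log2) from time 0 (limma adjusted p = 0.00172) and -0.59 ± 0.14 from 48 to 72 h (limma adjusted p = 0.00072). Without array 2 of time 0 the first became -0.61 (limma adjusted p = 0.0531). Usp18 lay between 34.2 and 83.9 in the embryo and 59.3 and 151 in adult liver, a difference of -0.64 ± 0.17 from time 0 (limma adjusted p = 0.00353) and of -0.56 ± 0.13 from 48 to 72 h (limma adjusted p = 0.000847). Without array 1 of time 0 the first was -0.21 (limma adjusted p = 0.426). These ranges overlap between embryo and adult, unlike that of Ifit1.

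Irf7 was the member closest to its adult level among those that were lowered. It ran from 107 to 159 in the embryo, a difference of -0.30 ± 0.11 (log2) from time 0 (limma adjusted p = 0.0307) and of -0.28 ± 0.09 from 48 to 72 h (limma adjusted p = 0.00663). The first was no longer called without array 1 (-0.28, limma adjusted p = 0.165) or array 2 of time 0, and the second under array weights (limma adjusted p = 0.0601). Against 48 to 72 h all 7 members were called, 5 lowered and 2 raised, where 30.8% and 35.3% of all genes were; the second raised member was Rsad2, at 0.28 ± 0.10 (limma adjusted p = 0.0142). The Rsad2 call ended in 6 of 42 alternatives. They were the mean of its probe sets (0.12, limma adjusted p = 0.228), quantile normalization (0.14, limma adjusted p = 0.211), array weights (limma adjusted p = 0.115), and leaving out both arrays of high Gapdh ratio (0.20, limma adjusted p = 0.117), 48 h array 2 (0.21, limma adjusted p = 0.0962) or 72 h array 1 (0.25, limma adjusted p = 0.0628). Its other probe sets were not called and differed in sign, with -0.16 for 1421008_at (limma adjusted p = 0.18) and 0.24 for 1421009_at (limma adjusted p = 0.237).

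The cellular make-up of embryonic liver differed widely from that of the adult. Red cell precursor markers (5 of 6 raised against time 0) summed to between 1644 and 16328 in the embryo and to 478 and 479 at time 0. Neutrophil granule genes (6 of 8 raised) summed to between 640 and 8073, against 785 and 827. Macrophage markers (6 of 11 lowered) summed to between 1823 and 5437, against 4594 and 4702, with Clec4f and Vsig4, defining genes of adult Kupffer cells, at -3.05 and -3.39 (log2). Hepatocyte markers summed to between 8174 and 28636, against 32419 and 35655. No list had a marker at or below 0 on all of its arrays. Their part in the members' differences was not tested.

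**Figure D4:**
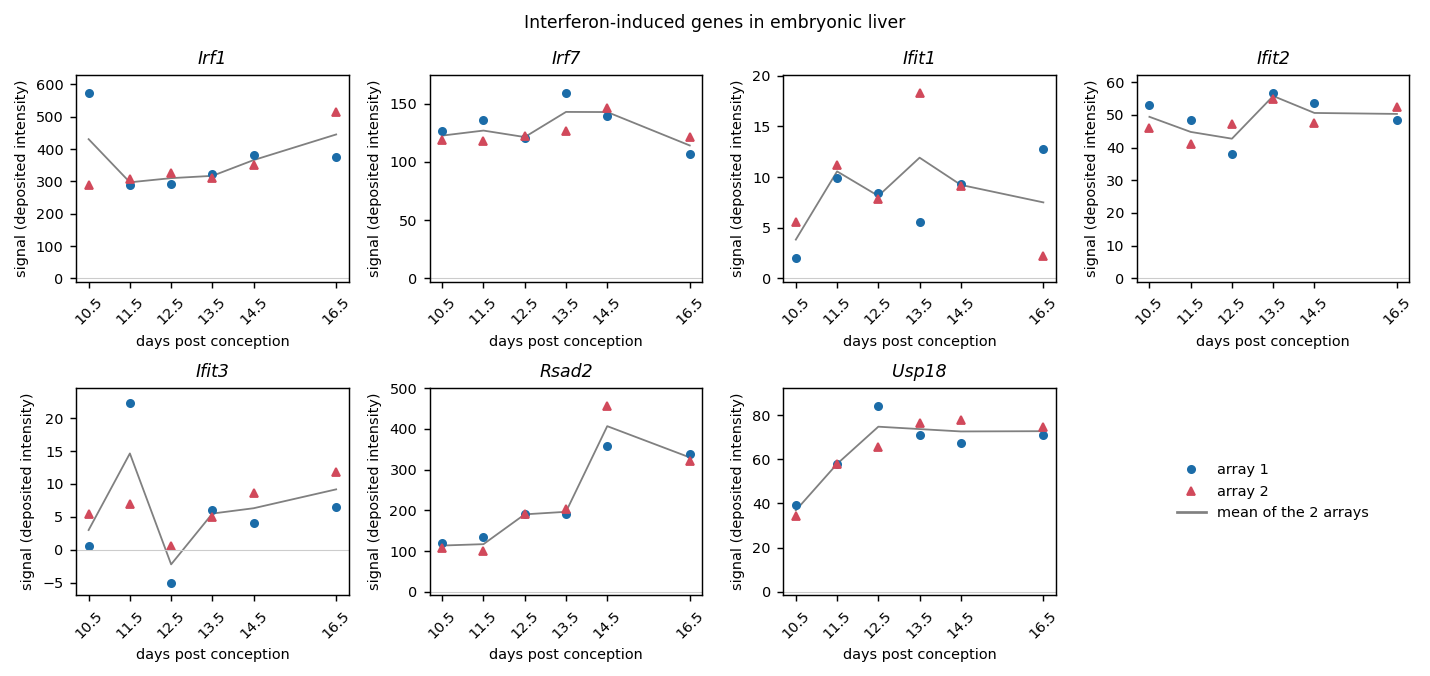
Deposited signal (linear intensity, y axis) of the 7 members at the 6 embryonic stages (x axis, days post conception); circles and triangles are the 2 arrays and the grey line is their mean. Rsad2 climbs from about 114 on average at 10.5 days to 407 at 14.5 days, and Usp18 from 36.8 to 72.6.

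Within the embryonic stages Rsad2 rose most. Its signal was 119.5 and 108 at 10.5 dpc, 134 and 100.2 at 11.5 dpc, 190.2 and 190.1 at 12.5 dpc, 191 and 202 at 13.5 dpc, 358 and 455 at 14.5 dpc, and 338 and 322 at 16.5 dpc. The 4 latest arrays lay above all 20 adult arrays, and the 4 earliest below all of them. The linear trend was 0.29 ± 0.02 (log2) per day (limma adjusted p = 6.68e-09), and it held in all 43 alternatives. Of all genes 16.2% were called raised with stage.

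The rise of Rsad2 was uneven over the stages. On the probe set used, Rsad2 rose by 0.64 ± 0.17 (log2) from 11.5 to 12.5 dpc (limma adjusted p = 0.0328) and by 0.98 ± 0.17 from 13.5 to 14.5 dpc (limma adjusted p = 0.0179). These were the only 2 of 35 member steps called, where 2.18% of all gene steps were. Neither step was called under quantile normalization or with embryonic arrays alone. From 14.5 to 16.5 dpc Rsad2 was not called, and the means were 407 and 330.0. The first step was no longer called without 11.5 dpc array 2 (0.46, limma adjusted p = 0.464) or without either array of 12.5 dpc. The second was no longer called without 14.5 dpc array 2 (0.82, limma adjusted p = 0.237) or without either array of 13.5 dpc. In the order of the 6 means, 3 of 5 gaps exceeded the pooled SD of 0.151, and the neighbours 12.5 and 13.5 dpc, and 10.5 and 11.5 dpc, did not differ beyond it.

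Rsad2 is the single member with 3 probe sets, and all 3 showed the rise. The set used above, 1436058_at, gave the trend just stated. The set 1421009_at was 0.906 and -1.08 at 10.5 dpc and 177 and 209 at 14.5 dpc, a trend of 0.58 ± 0.04 per day (log2; limma adjusted p = 1.52e-09 over 34958 probe sets). The set 1421008_at was 32.5 and 34.9 at 10.5 dpc and 109 and 112 at 14.5 dpc, a trend of 0.22 ± 0.03 per day (limma adjusted p = 1.57e-06). For the embryo as a whole against time 0 the 3 sets gave 0.07, -0.11 and -0.31, none of them called.

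**Figure D5:**
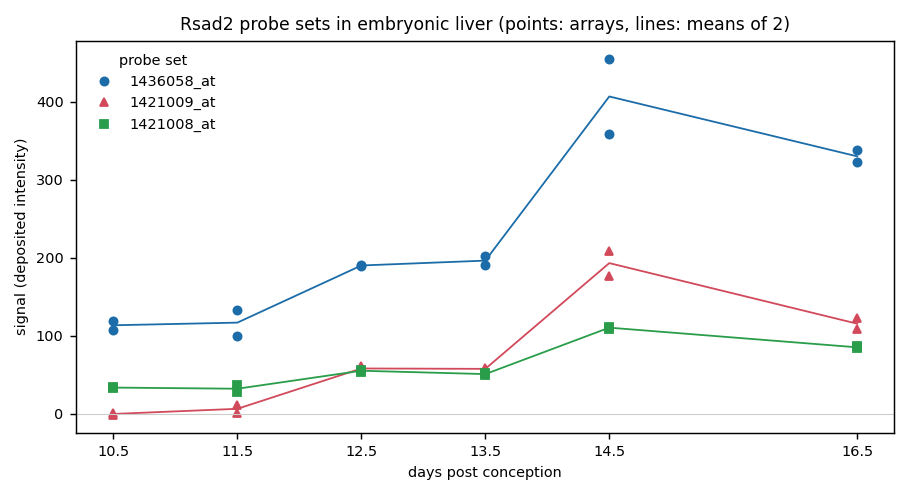
Deposited signal (linear intensity, y axis) of the 3 Rsad2 probe sets at the 6 embryonic stages (x axis, days post conception); points are arrays and lines are the means of 2. All 3 are highest at 14.5 days, and 1421009_at starts near 0 at 10.5 days.

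Usp18 also rose with stage, from 39.5 and 34.2 at 10.5 dpc to 57.9 and 57.9 at 11.5 dpc and 83.9 and 65.5 at 12.5 dpc, after which its 6 arrays stayed between 67.2 and 77.9. The trend was 0.10 ± 0.03 (log2) per day (limma adjusted p = 0.023). It was no longer called in 4 of 43 alternatives. They were quantile normalization and leaving out 16.5 dpc array 2 (0.10), 16.5 dpc array 1 (0.11) or 10.5 dpc array 2 (0.10). Its highest gap between neighbours, 0.49, was that between 11.5 and 10.5 dpc.

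Irf1 was 573 and 288 at 10.5 dpc, 288 and 307 at 11.5 dpc, 293 and 327 at 12.5 dpc, 322 and 312 at 13.5 dpc, 383 and 349.5 at 14.5 dpc, and 377 and 514 at 16.5 dpc. The high value at 10.5 dpc was that of the array with the high Gapdh ratio. Over all arrays the trend was 0.04 ± 0.03 per day (log2; limma adjusted p = 0.398), and without that array it was 0.10 (limma adjusted p = 0.0237). Ifit1, Ifit2, Ifit3 and Irf7 had no called trend, with values of at most 0.03 per day in size. A moderated F test over the 6 stages called Rsad2 (limma adjusted p = 9.91e-08) and no other member, where it called 20.8% of all genes. Markers of blood cells rose with stage as well: all 6 red cell precursor genes, all 8 neutrophil genes and 9 of 11 macrophage genes were called raised, as were 4 of 6 hepatocyte genes. Their part in the Rsad2 and Usp18 trends was not tested.

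The rest of the interferon pathway was followed through 154 listed genes in 12 groups, of which 129 were measured. At the adult times 1 was called raised and 3 lowered at 6 h, 6 and 10 (12 h) and 5 and 5 (18 h). The counts were 0 and 2 (24 h) and 0 and 1 (72 h), with none at the other 4 times. The share of all genes called was 0.473%, 0.544%, 1.98%, 8.76%, 7.65%, 1.17%, 0.319%, 1.43% and 2.91% in the order of the 9 times. Calls that held without any 1 of the 32 arrays numbered 1 of the 4 at 6 h, 3 of the 16 at 12 h and 4 of the 10 at 18 h, with 0 for both later times. For 12 to 30 h against 1 to 6 h, 8 pathway genes were raised and 10 lowered, where 15% of all genes were called. The 48 h counts rest on single arrays. With 48 h array 1 left out, pathway genes were called lowered at 48 h. With the 2 arrays of high Gapdh ratio left out, of which 48 h array 2 is one, some were called raised. Over 48 to 72 h against time 0, 1 gene was raised and 1 lowered, and more were raised without 48 h array 2. Each of these fits leaves 1 array at 48 h, and the share of all genes called in it was not computed. The 9 interferon ligands measured and the 6 receptor chains held no call against time 0 at any of the 9 times. The interferon alpha genes are near-identical copies, and their probe sets may read one another. The lambda receptor chain Ifnlr1 was at or below 0 on 29 of 32 arrays and gives no level.

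At 18 h, beside Irf7, the guanylate-binding protein Gbp2 rose, from 121 and 96.7 at time 0 to 429 and 209.9, by 1.35 ± 0.23 (log2; limma adjusted p = 0.000805), and fell back to 88.6 and 75.3 at 24 h. Gbp3 rose from 88.5 and 73.0 to 333 and 143, by 1.29 ± 0.29 (limma adjusted p = 0.00693), a call that ended without 18 h array 1 (0.72, limma adjusted p = 0.183) or array 2 of time 0. These are GTPases of cell-autonomous defence that interferon gamma induces, and 2 of the 9 measured rose. Igtp was called lowered (-0.81 ± 0.23, limma adjusted p = 0.0334), a call that ended without 18 h array 1 (-0.38, limma adjusted p = 0.506) or array 1 of time 0. Array 1 of 18 h was the higher in 8 of these 9 genes and in 59.2% of all genes, and in 4 of 7 members.

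Other targets were below time 0 at 18 h. Cmpk2, a mitochondrial nucleotide kinase gene that lies next to Rsad2 on chromosome 12, was 59.2 and 39.1 at time 0. It was 61.1 and 54.6 (1 h), 63.1 and 46.2 (2 h), 20.3 and 28.6 (6 h), 8.34 and 7.65 (12 h) and 4.05 and 8.14 (18 h). Cmpk2 was thus low before 18 h. Later it was 25.1 and 16.5 (24 h), 19.9 and 18.6 (30 h), 34.6 and 48.1 (48 h) and 45.1 and 40.7 (72 h). Its difference from time 0 at 18 h was -1.55 ± 0.23 (log2; limma adjusted p = 0.000238), held in all omissions of 1 array, while Rsad2, at 188 and 196, was not called (limma adjusted p = 1, 95% interval -0.34 to 0.34). Psmb9, an immunoproteasome subunit, fell by 0.89 ± 0.14 at 18 h (limma adjusted p = 0.000353). Socs3, a feedback inhibitor of cytokine receptors that also answers to interleukin 6, rose by 1.91 ± 0.30 at 6 h (limma adjusted p = 0.0009) and by 2.16 ± 0.30 at 12 h (limma adjusted p = 0.000109). From 12 to 30 h to 48 to 72 h, 11 pathway genes rose and none fell (3.89% of all genes rose), 4 of them in every omission of 1 array. These counts also moved with the setting: array weights left 2 raised. More rose without the arrays of high Gapdh ratio, and some fell without 48 h array 1. The share of all genes called under these settings was not computed.

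In the embryo the pathway was lower than at time 0 in 61 genes, higher in 13 and not called in 55; of all genes 24.6% were called lowered and 30.5% raised. The median over the 129 was -0.38 (log2), against 0.02 over all genes. Of the 12 MHC class I presentation genes 10 were lowered and none raised, among them B2m (the light chain) at -1.63 ± 0.23 and Nlrc5 (a transcriptional activator of the class) at -1.83 ± 0.15. Of the interferon gamma induced GTPases 7 of 9 were lowered and none raised, and of the other interferon regulatory factors 4 of 5. Of 48 other type I targets 21 were lowered, such as Bst2 (tetherin) at -2.90 ± 0.18, and 3 were raised: Isg20, Daxx and Pml. Among the signal transducers Stat2 was 1.58 ± 0.17 lower (limma adjusted p = 6.02e-08), Jak2 was 1.35 ± 0.10 higher (limma adjusted p = 1.78e-10), and Irf9 was not called (-0.27, limma adjusted p = 0.0831).

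Of the receptor chains, Ifngr1 was higher in the embryo (0.77 ± 0.15, limma adjusted p = 0.000162). Ifnar1 (0.26, limma adjusted p = 0.106), Ifngr2 (-0.16, limma adjusted p = 0.393) and Il10rb (0.19, limma adjusted p = 0.154) were not called. Ifnar2 was lower by 0.44 ± 0.17 (limma adjusted p = 0.0369), a call that ended in 6 of the 32 omissions of 1 array, and without array 1 of time 0 its adjusted p was 0.316. With stage it rose by 0.23 ± 0.03 per day (limma adjusted p = 1.62e-05).

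With stage, 44 of the 129 pathway genes rose and 5 fell, where 16.2% and 11.4% of all genes did. In the step from 11.5 to 12.5 dpc, in which Rsad2 was called on the probe set used, 5 pathway genes were raised and 0 lowered. In the step before it, from 10.5 to 11.5 dpc, 13 were raised and 1 lowered. Over all 5 steps 2.18% of all gene tests were called. Irgm2, an immunity-related GTPase, was 46.9 and 42.5 at 11.5 dpc and 351 and 298 at 12.5 dpc, a trend of 0.67 ± 0.04 per day (log2; limma adjusted p = 2.1e-11). Igtp, of the same family, went from 115.3 and 136 to 624 and 464, a trend of 0.51 ± 0.03 (limma adjusted p = 1.88e-10). Isg20, an exonuclease that degrades viral RNA, went from 87.0 and 65.5 to 252 and 132 and on to 563 and 507 at 14.5 dpc, a trend of 0.57 ± 0.03 (limma adjusted p = 4.16e-11). The 3 trends held in all omissions of 1 array, as did the 12.5 dpc step of Irgm2 and Igtp; that of Isg20 (limma adjusted p = 0.00591) ended without 12.5 dpc array 1 (0.70, limma adjusted p = 0.252) or 11.5 dpc array 2.

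As a description without a test, the genes whose group means were most like those of a member were sought among all genes that span at least 1 (log2). Over the 10 adult times Irf7 was most like Aak1, Tax1bp3 and Tkfc (Pearson r = 0.89, 0.87 and 0.86). Ifit1 was most like Ifit3 (r = 0.93), then Ctu2 and Mtfp1 (0.91 and 0.89). Ifit1, with a span of 0.89 (log2), was not itself a candidate. Among the candidates, Ifit3 was most like Mtfp1, Acaca and Fasn (0.90, 0.88 and 0.86), each below its r with Ifit1. Over the 6 stages Rsad2 was most like Tmem205, Dtx1 and Nrn1 (each at 0.99), and Usp18 most like Hbb-b2, Ssx2ip and Zfp184 (0.998, 0.998 and 0.996). The points of a correlation share their arrays, and with 10 or 6 groups high values are easily reached among so many genes.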

How the data were processed

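The data are Affymetrix signals of total liver RNA labelled as biotinylated cRNA, per the labels' protocols. The deposited values are linear intensities, 1 per probe set and array; which software produced them, and how they were normalized, is not given in the sources used here. Between 2.54% and 4.02% of an array's values lay below 0 and were set to 0. Of 45101 probe sets, 34958 listed 1 gene symbol, 932 several and 9211 none in the platform annotation, which can be old, and the single-symbol set of highest mean stood for each of 18194 genes.

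Values were analysed as log2(signal + 16) with limma 3.58.1 in R 4.3.3: 1 mean per group, all 32 arrays, 16 residual degrees of freedom, empirical Bayes with a mean-variance trend, and Benjamini-Hochberg adjustment over all genes at 0.05. The number of arrays limits the precision. The scripts were tested on simulated data. No 2 arrays held identical values. Alternatives were other constants (4 and 64), quantile normalization, array weights, no trend, a filter on low values, the mean of a gene's probe sets, no ambiguous probe sets, adult or embryonic arrays alone, a replicate block, and each array left out. Leaving out the arrays of high Gapdh ratio and reading each probe set alone were added after seeing the data.

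Members, gene lists and markers were chosen with earlier results of these data known. Named pathway genes are among the 4 of smallest p per list and comparison, with the receptors, Stat2 and Irf9 named in any case; Igtp at 18 h, Gbp2 at 24 h and Cmpk2 at other times were described after their values were seen. Isg15 and Ifi44 are not analysed here. Promoter windows are those of RefSeq (GRCm38.p6), cut to the 250 bases before the start.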

Additional observations from a re-analysis of the deposited data

How the results depend on the processing

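Of the tests of single members under the alternatives, 4988 kept their side of the threshold, 51 lost a call and 30 gained one. None changed sign where it was called as reported or under the alternative. Uncalled tests could change sign: Usp18 at 12 h against time 0 was -0.13 (log2) as reported and ran from -0.56 to 0.31. Counts of member calls moved as follows, under the settings and when 1 array was left out. The share of all genes called was not computed for these alternatives, and the cause of the moves was not tested. For the single times against time 0 (3 calls) a constant of 64 gave 5, and a constant of 4, adult arrays alone and array weights each gave 1. For 12 to 30 h against time 0 (1 call) a constant of 64 gave 2, and a constant of 4, adult arrays alone and array weights gave 0. For 48 to 72 h against time 0 (0 calls) a constant of 64 gave 1. For 12 to 30 h against 1 to 6 h (0 calls) the mean of probe sets and array weights gave 1. The embryo against 48 to 72 h (7 calls) gave 6 under quantile normalization, with the mean of probe sets and without the arrays of high Gapdh ratio, 5 under array weights, and 5 of the 5 members that passed the filter on low values. Successive times (2 calls) gave 1 with adult arrays alone. The stage trend (2 calls) gave 1 under quantile normalization. Successive stages (2 calls) gave 0 under quantile normalization and with embryonic arrays alone. The F test over adult times (1 call) gave 2 with a constant of 64, the mean of probe sets, array weights or without the arrays of high Gapdh ratio, and that over stages (1 call) gave 3 with a constant of 4 and 2 with embryonic arrays alone.

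Leaving out 1 array gave 1 to 13 calls for the single times, 0 to 1 for 1 to 6 h, 0 to 2 for 12 to 30 h and for 48 to 72 h against time 0, and 0 to 0 for both differences between phases. It gave 1 to 3 for successive times, successive stages and the stage trend, 3 to 6 for the embryo against time 0, 6 to 7 against 48 to 72 h, 1 to 4 for the adult F test and 1 to 2 for the stage F test.

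With the replicate number as a block the single times held 2 calls, Ifit3 at 12 h having an adjusted p of 0.0519 in limma, and the other counts were as reported (6 and 7 for the embryo, 2 for the trend). The numbers do not pair the samples: over 120 pairs of groups the correlation of same-numbered deviations ran from -0.36 to 0.55, with 17 above 0.1. Ifit1, Ifit2 and Ifit3 were dim, so the size of their differences depends on the constant added.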
